A study of Mus musculus with 13 samples.

Results

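The genes described here are 10 genes of blood vessel growth and of the vessel wall, Vegfa, Vegfc, Kdr, Flt1, Pecam1, Cdh5, Tek, Angpt1, Angpt2 and Esam, out of 55332 genes with values in bulk RNA-seq of 13 mouse tumors. They were chosen by name, as ligands and receptors of the VEGF and angiopoietin pathways and as markers of endothelial cells, and each was found in the table under its GENCODE symbol. The tumors are mouse NUT carcinomas (mNCs), poorly differentiated squamous tumors that arise in NCT mice once Cre recombinase is active. The study deleted Sox2 in the cells in which these tumors arise and asked whether tumors from oral mucosa and from pancreas still form and how their expression changes.

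All 13 tumors carry a Cre driver and the NCT+/- allele, and Sox2 is the locus by which the genotypes differ. The oral WT group (n = 4) is labelled KRT14-Cre; NCT+/-, and the oral KO group (n = 2) is labelled KRT4Cre; NCT+/-; Sox2fl/fl, although the study's methods name KRT14-Cre for both. The pancreatic WT group (n = 4) is Pdx1-Cre; NCT+/-, and the pancreatic KO group (n = 3) is Pdx1-Cre; NCT+/-; Sox2fl; fl. KRT14-Cre acts in basal cells of oral, skin and salivary epithelium and Pdx1-Cre in pancreatic progenitors, and both are drivers of epithelial lineages. Age at collection is not stated. The labels number the tumors of a group and do not say that each came from its own mouse, so p-values measure the spread between these tumors. Whole tumors were sequenced, and in bulk RNA a lower level from fewer cells of a type cannot be told apart from less RNA per cell.

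Estimated counts per tumor totalled 29394258 to 40420228 in oral WT, 11735315 and 20432164 in oral KO, 40964533 to 46134830 in pancreatic WT and 89562790 to 120482829 in pancreatic KO tumors. Oral KO replicate 1 stood apart, with 59.5% of its counts in protein-coding genes against 84.5% to 91.7% in the others. Sox2 was at 15.6 ± 4.66 CPM (counts scaled to a common library size) in oral WT and 32.8 ± 2.4 in pancreatic WT tumors (SD, n = 4 each), and at 0 to 0.039 CPM in the 5 KO tumors. The oral KO tumors also held skeletal muscle RNA. The summed level of 10 muscle genes was 3185 and 5719 CPM there, 6.43 to 602 CPM in oral WT and 7.4 to 14.2 CPM in pancreatic tumors. Of the epithelial markers, 8 squamous genes summed to 4087 to 9400 CPM in oral and 10641 to 18231 CPM in pancreatic tumors. Pancreatic acinar genes summed to 3.91 to 259 CPM in pancreatic tumors, where Ptf1a was at 0 in every WT tumor, and to at most 1.14 CPM in oral tumors. Among 5 adipocyte genes, Fabp4, which capillary endothelium and macrophages also express, was at 101 to 577 CPM in oral and 517 to 2960 CPM in pancreatic tumors, while Adipoq, Plin1, Cidec and Lep lay below 1 CPM in every tumor.

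VEGF-A, secreted by many cell types when oxygen is low, binds the receptor tyrosine kinases VEGFR2 (Kdr) and VEGFR1 (Flt1) on endothelial cells. VEGFR2 carries most of the growth signal, whereas VEGFR1 binds the ligand tightly and signals weakly. VEGF-C acts mainly on lymphatic vessels through VEGFR3. Angiopoietin-1, made mostly by mesenchymal and mural cells, activates the endothelial receptor Tie2 (Tek) and keeps vessels quiet, and angiopoietin-2, released by endothelial cells at sites of remodeling, competes with it. PECAM-1, VE-cadherin (Cdh5) and ESAM hold endothelial cells together at their junctions.

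RefSeq start sites on GRCm38.p6 were at hand for 5 of the 10 genes, Vegfa, Vegfc, Kdr, Flt1 and Tek. The 250 bases before the start are shown for the VEGF receptors, for Tek and for Vegfa, the 2 last having differed between tissues of origin. Capitals mark GGAA or its reverse complement TTCC, the core bound by ETS factors, a family with many endothelial target genes. The windows are chr5:75978456-75978705 for Kdr (minus strand), chr5:147726012-147726261 for Flt1 (minus strand), chr4:94739039-94739288 for Tek (plus strand) and chr17:46032378-46032627 for Vegfa (minus strand), each printed 5′ to 3′ on the strand of its gene.
Kdr: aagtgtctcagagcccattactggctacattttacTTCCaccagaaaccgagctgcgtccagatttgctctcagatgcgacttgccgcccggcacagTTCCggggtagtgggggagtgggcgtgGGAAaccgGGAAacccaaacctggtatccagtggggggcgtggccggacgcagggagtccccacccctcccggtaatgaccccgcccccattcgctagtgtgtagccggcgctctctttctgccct
Flt1: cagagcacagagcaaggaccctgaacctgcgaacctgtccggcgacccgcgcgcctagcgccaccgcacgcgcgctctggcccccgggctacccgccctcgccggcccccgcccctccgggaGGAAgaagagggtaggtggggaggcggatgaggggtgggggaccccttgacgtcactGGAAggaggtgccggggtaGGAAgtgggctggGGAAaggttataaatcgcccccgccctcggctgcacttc
Tek: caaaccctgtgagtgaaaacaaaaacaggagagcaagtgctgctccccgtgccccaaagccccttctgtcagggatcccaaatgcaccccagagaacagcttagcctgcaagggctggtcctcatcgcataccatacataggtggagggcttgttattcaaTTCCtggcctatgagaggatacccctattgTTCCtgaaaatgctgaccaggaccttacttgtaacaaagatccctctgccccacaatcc
Vegfa: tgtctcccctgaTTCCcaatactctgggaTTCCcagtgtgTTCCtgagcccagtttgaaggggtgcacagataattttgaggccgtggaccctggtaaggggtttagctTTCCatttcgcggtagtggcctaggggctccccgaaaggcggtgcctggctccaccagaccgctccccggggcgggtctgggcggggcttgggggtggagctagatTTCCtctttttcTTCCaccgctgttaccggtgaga
On both strands of the 250 bases before the start, GGAA occurred 4 times for Kdr, 4 times for Flt1, 2 times for Tek, 6 times for Vegfa and once for Vegfc, and 93.4% of 32851 promoters hold it in a window of that length. GGGCGG, the GC box, occurred 2 times for Kdr, 3 for Flt1, 2 for Vegfa, 2 for Vegfc and 0 for Tek (32.7% of promoters). TATAAA was found in the Flt1 window and in no other of these windows (12.4% of promoters). ACGTG, the core of a hypoxia response element, was in none of these 5 windows, and a second RefSeq start of Vegfa has 1 in its window (16.6% of promoters). That window, chr17:46025164-46025413, lies inside the gene, and bases farther upstream of the starts were not searched. None of these motifs lies within another.

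In transcript level per length of gene, Vegfa stood above the other 9 genes in pancreatic tumors. The means there were 82.3 ± 19.8 CPM per kb of exon in WT (SD, n = 4) and 67.2 ± 32.6 in KO tumors (SD, n = 3), and those of Pecam1, the next in WT, were 11.3 ± 3.72 and 11.8 ± 0.951. In oral WT tumors, Vegfa was at 11.8 ± 9.95 CPM per kb, Cdh5 at 8.56 ± 3.04 and Pecam1 at 6.11 ± 1.79 (SD, n = 4), which overlapped. The receptors were lower, with Kdr at 1.36 to 1.93, Flt1 at 2.1 to 3.48 and Tek at 0.377 to 1.29 CPM per kb over the 4 group means. Every gene had counts in every tumor, and the lowest level was 1.05 CPM, that of Tek in pancreatic WT replicate 2.

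**Figure D1:**
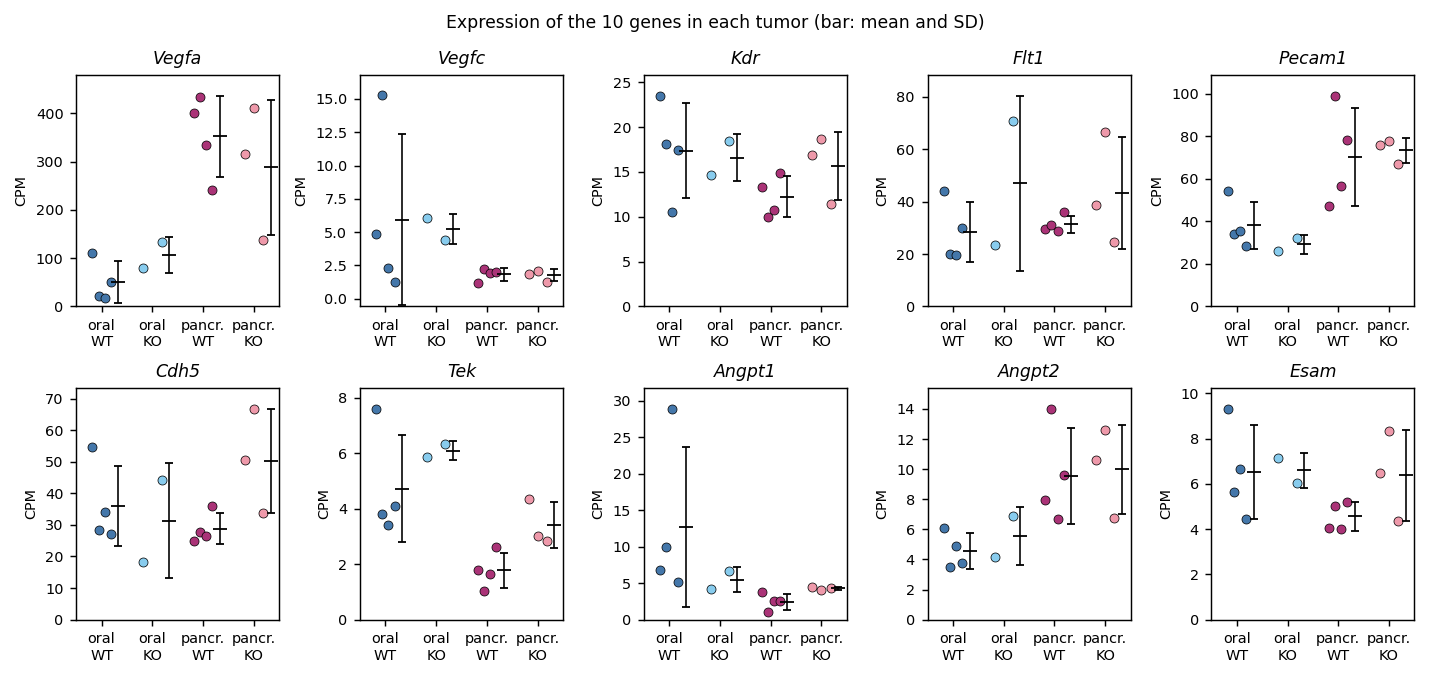
Expression of the 10 genes in CPM on linear axes, 1 panel per gene, with 1 point per tumor and the mean and SD of each group (n = 4, 2, 4 and 3) as a black bar. Vegfa lies at 18.4 to 133 CPM in oral and at 137 to 433 CPM in pancreatic tumors, while the Kdr and Flt1 groups overlap.

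Tumors of the same genotype were compared between tissues first, because the largest differences among the 10 genes lay there. Among WT tumors, Vegfa and Angpt2 were lower and Tek and Angpt1 were higher in oral than in pancreatic tumors. These 4 of 10 genes were called, which means that edgeR's quasi-likelihood test gave them an adjusted p below 0.05 and a log2 fold change beyond 1 in size, 2 in each direction. Of all 23164 genes tested, 9.3% were called higher and 7.24% lower in oral WT tumors. Fold changes in this comparison are oral over pancreatic.

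Vegfa (chr17:46016993-46032369, minus strand, GRCm38), the main VEGF ligand, had 111, 22.5, 18.4 and 49.9 CPM in the oral WT tumors and 400, 433, 335 and 241 CPM in the pancreatic WT tumors. The lowest pancreatic tumor was at 241 CPM and the highest oral tumor at 111 CPM, so the groups did not overlap. Means were 50.4 ± 42.7 and 352 ± 84.7 CPM (SD, n = 4 each), a log2 fold change of -2.8 (standard error, SE, of 0.56, edgeR adjusted p = 0.00904), or 6.98-fold. Vegfa was called under all 17 alternatives tried for this comparison, with the largest value, -3.54, without oral WT replicate 1. Genes that respond to low oxygen were lower in the same tumors, as described with the gene lists.

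Angpt1 (chr15:42424723-42676977, minus strand), the Tie2 agonist, had 6.77, 10, 28.9 and 5.1 CPM in oral WT and 3.78, 1.1, 2.57 and 2.51 CPM in pancreatic WT tumors. All oral tumors lay above all pancreatic tumors, and oral WT replicate 3 lay highest. The log2 fold change was 2.34 (SE 0.61, edgeR adjusted p = 0.024). Without oral WT replicate 3 it was 1.55 and still called, and without pancreatic WT replicates 2, 3 or 4 the adjusted p was 0.0556, 0.0642 and 0.0549.

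Angpt2 (chr8:18690263-18741562, minus strand), the Tie2 ligand of remodeling vessels, went the other way. It had 6.11, 3.51, 4.91 and 3.74 CPM in oral WT and 7.95, 14, 6.7 and 9.63 CPM in pancreatic WT tumors, with 6.11 CPM the highest oral and 6.7 CPM the lowest pancreatic value. The log2 fold change was -1.07 (SE 0.29, edgeR adjusted p = 0.0287), close to the threshold of 1. The call was lost without oral WT replicates 2, 3 or 4 (log2 fold changes -0.96, -1.1 and -0.98), without pancreatic WT replicates 2 or 4 (-0.83 and -1.05), and with apeglm shrinkage (-0.97).

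Tek (chr4:94739289-94874976, plus strand), which encodes the receptor Tie2, had 7.59, 3.79, 3.42 and 4.09 CPM in oral WT and 1.78, 1.05, 1.66 and 2.61 CPM in pancreatic WT tumors. The groups did not overlap, and oral WT replicate 1 lay far above the other 3 oral tumors. The log2 fold change was 1.41 (SE 0.37, edgeR adjusted p = 0.025). The call was lost without oral WT replicate 1 (1.09, adjusted p = 0.0589) and without pancreatic WT replicates 1, 2 or 3 (1.43, 1.23 and 1.38, adjusted p from 0.0565 to 0.0695).

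The 6 other genes were not called. Pecam1 (chr11:106654217-106750628, minus strand), an adhesion molecule of endothelial cells that leukocytes and platelets also carry, had 54.1, 34.3, 35.6 and 28.3 CPM in oral WT and 47.4, 99.2, 56.5 and 78.2 CPM in pancreatic WT tumors. Its log2 fold change of -0.88 (SE 0.27) had an adjusted p of 0.0433 from edgeR and did not reach the fold threshold, which it did without oral WT replicate 1 and without pancreatic WT replicate 1. Vegfc (chr8:54077606-54187096, plus strand), the lymphatic ligand, ranged from 1.29 to 15.3 CPM in oral WT and from 1.15 to 2.21 CPM in pancreatic WT tumors. Its log2 fold change was 1.7 (SE 0.71, edgeR adjusted p = 0.115), it was called without oral WT replicate 4 and by DESeq2, and oral WT replicate 2 held the value of 15.3 CPM.

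The VEGF receptors and the remaining junction genes lay close together in the 2 tissues. Kdr (chr5:75932827-75978458, minus strand) had 23.5, 18.1, 10.5 and 17.4 CPM in oral WT and 13.3, 10, 10.8 and 14.9 CPM in pancreatic WT tumors, a log2 fold change of 0.5 (SE 0.25). Flt1 (chr5:147561604-147726011, minus strand) had 44.1, 20.1, 19.5 and 30 CPM and 29.6, 31.2, 28.9 and 36.1 CPM, a log2 fold change of -0.14 (SE 0.26). Cdh5 (chr8:104101625-104144511, plus strand) was at 36 ± 12.8 and 28.8 ± 4.95 CPM and Esam (chr9:37528078-37538319, plus strand) at 6.51 ± 2.08 and 4.57 ± 0.641 CPM (SD, n = 4 each), with log2 fold changes of 0.32 and 0.51. The groups of all 4 genes overlapped, and the adjusted p from edgeR was 0.18 to 0.733.

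Among KO tumors, Pecam1 was lower and Vegfc higher in oral than in pancreatic tumors, and these 2 of 10 genes were called. Of 24787 genes tested, 14.6% were called higher and 10.7% lower in oral KO tumors. Pecam1 had 26.1 and 32.3 CPM in oral KO and 76, 77.8 and 66.8 CPM in pancreatic KO tumors, which did not overlap. The log2 fold change was -1.39 (SE 0.18, edgeR adjusted p = 0.00754), or 2.61-fold. Of 15 alternatives, 14 kept the call, and when protein-coding genes alone were fitted without oral KO replicate 1 the value was -0.99 (adjusted p = 0.0475), just short of the fold threshold. Leukocyte genes, which mark cells that also carry PECAM-1, were mostly lower in oral KO tumors too, with 3 of 8 above 0 and a median log2 fold change of -0.52. Mean levels in oral and pancreatic KO tumors were 28.6 and 37.1 CPM for Ptprc, 17.8 and 35.6 for Cd68, 28.5 and 41.9 for Csf1r, 4.67 and 14.4 for Adgre1 and 9.37 and 20.8 for Itgam. Higher in oral KO tumors were Cd3e (0.75 and 0.39 CPM), Cd79a (0.455 and 0.154 CPM) and S100a8. S100a8, a neutrophil gene, was the 1 of 8 called, with means of 168 against 12.9 CPM. The oral KO values behind this mean were 48.9 and 288 CPM, in tumors whose list sums were 149 and 368 CPM. Pancreatic KO tumors had list sums of 106 to 248 CPM. Of the oral KO tumors, S100a8 made up most of the sum only in that with 368 CPM. The part of leukocyte RNA in the Pecam1 result was not tested.

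Vegfc had 6.05 and 4.41 CPM in oral KO and 1.89, 2.11 and 1.27 CPM in pancreatic KO tumors, a log2 fold change of 1.52 (SE 0.38, edgeR adjusted p = 0.0302). The call did not survive leaving out any 1 of the 5 tumors, with adjusted p of 0.0521 to 0.0827. Vegfa had 79.9 and 133 CPM in oral KO and 315, 412 and 137 CPM in pancreatic KO tumors. The groups did not overlap by a margin of 133 against 137 CPM, and the log2 fold change of -1.49 (SE 0.49, edgeR adjusted p = 0.0641) missed the threshold. It passed with DESeq2 (adjusted p = 0.0123) and without pancreatic KO replicate 3 (-1.81, adjusted p = 0.0267), the tumor at 137 CPM. Tek, at 5.85 and 6.32 against 4.36, 3.02 and 2.85 CPM, also did not overlap and was not called (log2 fold change 0.78, SE 0.34, edgeR adjusted p = 0.122). Angpt1, called between WT tumors, had 4.27 and 6.71 CPM in oral KO and 4.52, 4.13 and 4.35 CPM in pancreatic KO tumors, which overlapped.

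**Figure D2:**
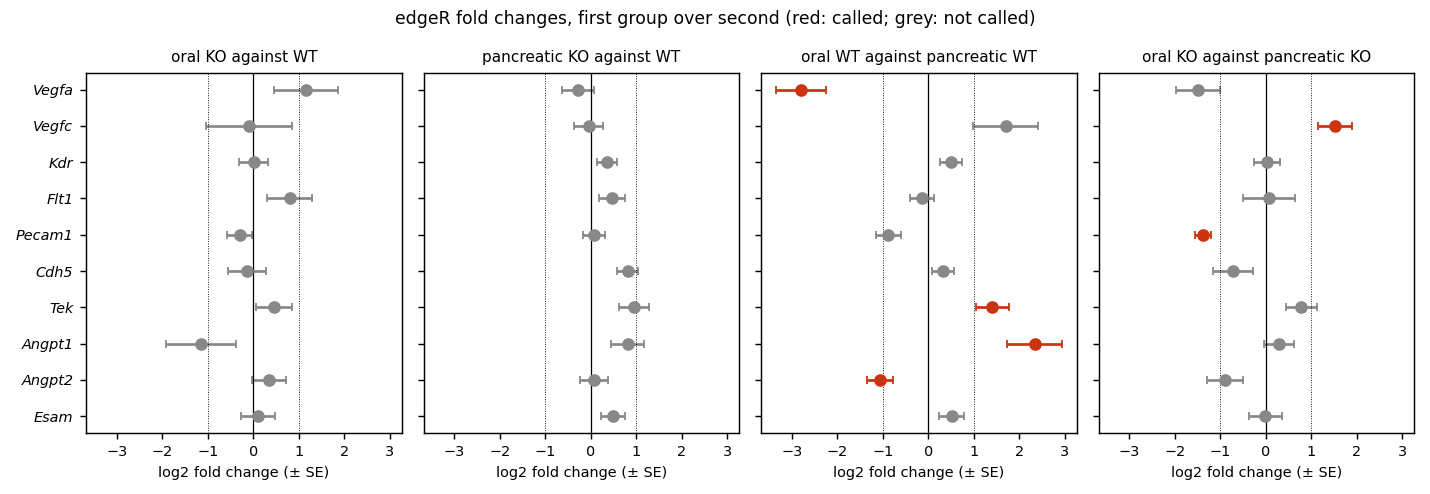
Log2 fold changes of the 10 genes in 4 comparisons, first group over second, with the edgeR SE as horizontal bars, dotted lines at -1 and 1, and red for called genes. The 4 red points between WT tumors are Vegfa, Tek, Angpt1 and Angpt2, the 2 between KO tumors are Vegfc and Pecam1, and no gene is red in either KO against WT panel.

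Loss of Sox2 moved none of the 10 genes past the thresholds in either tissue. In oral tumors, edgeR called 0 of 10, DESeq2 called 0, and 0 had an unadjusted p under 0.05, where 11.7% of 22342 genes tested were called in either direction and 35.4% had such a p. The share called depends on the genes fitted. With protein-coding genes alone, a class that holds all 10 genes, 19 of 16352 were called higher and 8 lower in KO tumors. Only 2 oral KO tumors entered, 1 of them oral KO replicate 1. Vegfa had 79.9 and 133 CPM in oral KO tumors, within or above the 18.4 to 111 CPM of oral WT tumors, a log2 fold change of 1.16 (KO over WT, SE 0.7, edgeR adjusted p = 0.28). Flt1 had 23.3 and 70.7 CPM in oral KO and 19.5 to 44.1 CPM in oral WT tumors (log2 fold change 0.8, SE 0.49, edgeR adjusted p = 0.279), and its value was 1.37 without oral KO replicate 1 and -0.17 without oral KO replicate 2. Angpt1 had 4.27 and 6.71 CPM in oral KO and 5.1 to 28.9 CPM in oral WT tumors (-1.14, SE 0.77, edgeR adjusted p = 0.321). The other 7 genes had log2 fold changes of -0.3 (Pecam1) to 0.45 (Tek), with SEs of 0.28 to 0.94, and all 10 genes overlapped between the groups.

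In pancreatic tumors, edgeR called 0 of 10 genes, DESeq2 called 0, and 2, Cdh5 and Tek, had an unadjusted p under 0.05, where 0.629% of 24653 genes tested were called and 15.9% had such a p. Cdh5, the endothelial cadherin, had 24.8, 27.7, 26.6 and 36 CPM in WT and 50.5, 66.6 and 33.7 CPM in KO tumors. Its log2 fold change was 0.81 (SE 0.23, edgeR adjusted p = 0.143), and 2 of 3 KO tumors lay above every WT tumor. Tek had 1.78, 1.05, 1.66 and 2.61 CPM in WT and 4.36, 3.02 and 2.85 CPM in KO tumors, which did not overlap (0.95, SE 0.34, edgeR adjusted p = 0.229). Angpt1 had 3.78, 1.1, 2.57 and 2.51 CPM in WT and 4.52, 4.13 and 4.35 CPM in KO tumors, which did not overlap either (0.81, SE 0.37, edgeR adjusted p = 0.343). Vegfa, at 352 ± 84.7 (SD, n = 4) and 288 ± 140 CPM (SD, n = 3), had a log2 fold change of -0.28 (SE 0.36, edgeR adjusted p = 0.756). Pecam1, Angpt2 and Vegfc had values of 0.07, 0.07 and -0.05, and Kdr, Flt1 and Esam of 0.36, 0.47 and 0.49, with adjusted p of 0.41 or more.

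Whether the effect of Sox2 loss differed between tissues was tested as an interaction in 1 fit of all 13 tumors, as the oral KO against WT difference minus the pancreatic. None of the 10 genes was called by edgeR or by DESeq2, where 12.3% of 25836 genes tested were, and 1, Angpt1, had an unadjusted p under 0.05. With protein-coding genes alone, 439 of 17462 were called above 0 and 352 below. The interaction of Angpt1 was -2 (SE 0.85, edgeR adjusted p = 0.121), that of Vegfa 1.37 (SE 0.85, edgeR adjusted p = 0.273) and that of Cdh5 -1 (SE 0.51, edgeR adjusted p = 0.186). The other 7 genes lay between -0.57 (Tek) and 0.27 (Flt1).

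Ratios of 2 genes within a tumor do not depend on how libraries are scaled, and a pair of them was followed. The ratio of Angpt2 to Angpt1 counts, the competing against the activating Tie2 ligand, was 0.901, 0.351, 0.17 and 0.733 in oral WT and 2.1, 12.5, 2.59 and 3.81 in pancreatic WT tumors. Angpt1 counts thus exceeded those of Angpt2 in 4 of 4 oral WT tumors and fell short of them in 4 of 4 pancreatic WT tumors, counts not being corrected for gene length. The mean log2 ratios were -1.17 ± 1.09 and 2 ± 1.15 (SD, n = 4 each). They differed by -3.17, or 9-fold, with p = 0.0286 in a two-sided exact permutation test, the smallest that 70 labelings allow, and 0.114 adjusted over 4 comparisons. The ratio was 0.972 and 1.03 in oral KO and 2.35, 3.05 and 1.55 in pancreatic KO tumors, which did not overlap, with p = 0.2 in the exact permutation test, where 0.1 is the smallest possible. KO and WT tumors differed in the mean log2 ratio by 1.17 in oral (exact permutation p = 0.133) and by -0.85 in pancreatic tumors (exact permutation p = 0.314).

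The ratio of Vegfa to Cdh5 counts, the ligand over an endothelial junction gene, was 2.03, 0.794, 0.542 and 1.85 in oral WT and 16.1, 15.6, 12.6 and 6.69 in pancreatic WT tumors. The mean log2 ratios were 0.17 ± 0.93 and 3.59 ± 0.59 (SD, n = 4 each), a difference of -3.42 or 10.7-fold (exact permutation p = 0.0286, the smallest possible, 0.114 adjusted). In KO tumors the ratio was 4.34 and 3 in oral and 6.25, 6.19 and 4.05 in pancreatic tumors, which overlapped (log2 difference -0.58, exact permutation p = 0.3). Each pancreatic KO tumor lay below every pancreatic WT tumor, with a log2 difference of -1.16 (exact permutation p = 0.0571, against a smallest possible p of 0.0286). Both oral KO tumors lay above every oral WT tumor (log2 difference 1.68, exact permutation p = 0.133, against a smallest possible p of 0.0667).

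**Figure D3:**
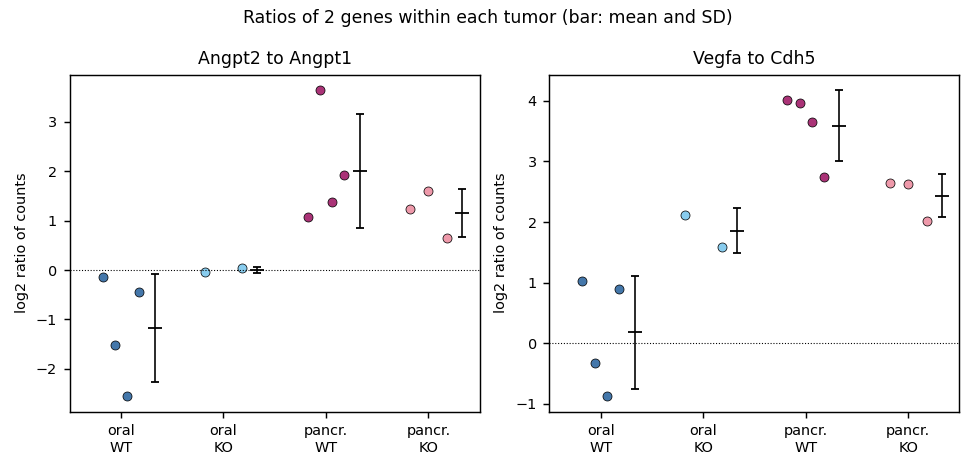
Log2 ratios of Angpt2 to Angpt1 and of Vegfa to Cdh5 counts in each tumor, with 1 point per tumor and the mean and SD of each group, and a dotted line at a ratio of 1. The oral WT tumors lie below the pancreatic WT tumors in both panels, and the oral KO tumors lie at 0 for the angiopoietins.

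Within groups, several pairs of the endothelial genes were high in the same tumors. With the group mean subtracted from log2 CPM, Pearson's r over the 13 tumors, given as a description of tumors that share library effects, was 0.89 for Flt1 and Cdh5, 0.81 for Pecam1 and Angpt2, 0.78 for Cdh5 and Angpt2, and 0.72 for Kdr with each of Flt1 and Tek. Vegfa had r of 0.78 with Flt1 and 0.69 with Kdr, its receptors. Angpt1 stood apart, with r of -0.5 with Vegfa and at most 0.07 with every other gene, and so did Vegfc, with r of at most 0.38.

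**Figure D4:**
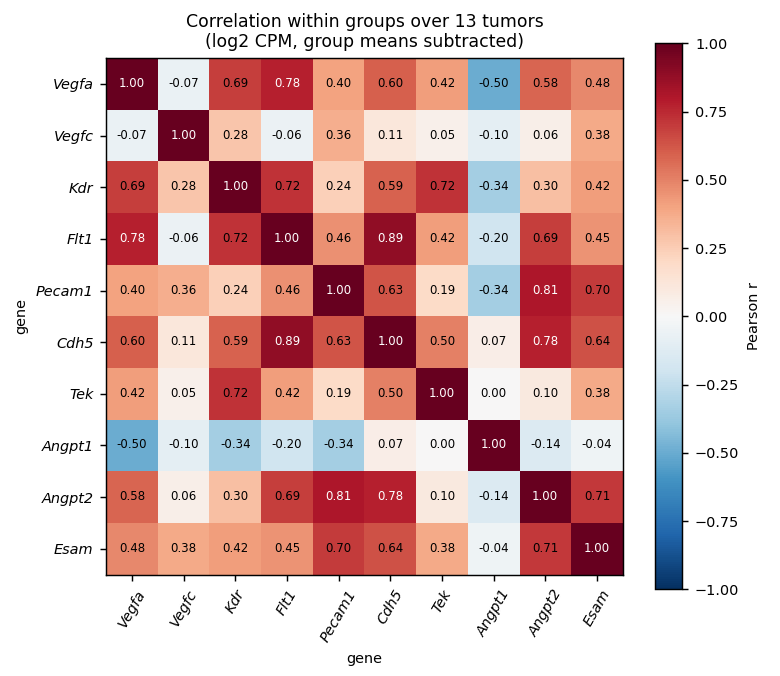
Pearson's r between each pair of the 10 genes over 13 tumors, from log2 CPM with group means subtracted, on a color scale from -1 (blue) to 1 (red). Flt1 and Cdh5 form the reddest pair at 0.89, and the Angpt1 and Vegfc rows are pale or blue.

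Of 14142 protein-coding genes with a mean of at least 1 CPM, those most like Vegfa in this sense were Ndufa4l2 and Ndrg1 (r = 0.94 each), both known to be induced by hypoxia, Cd44 and Dmtf1 (0.93), and Slc16a3, a lactate exporter (0.92). Those most like Angpt2 were Ptgs2 and Vwa1 (0.93), followed by the glycolytic genes Pgam1, Pkm and Pgk1 (0.9). Those most like Cdh5 were Col4a1, a basement membrane collagen, and Gm49336 (0.93), Cd93, an endothelial receptor (0.92), and Sardh and Homer1 (0.91). Those most like Pecam1 were Enpp1 (0.97), the collagen lysyl hydroxylase Plod1 (0.96), and Plek2, Plod3 and Lamb3 (0.93). The search left out the 10 genes themselves, several of which are endothelial markers. Of the other endothelial markers listed for this work, none is among these 20 genes.

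The wider VEGF family followed Vegfa little. Of 10 ligands, receptors and co-receptors, 1 was called lower in oral than in pancreatic WT tumors, Vegfa itself, and none higher. The shares over all genes were 7.24% lower and 9.3% higher. The median log2 fold change was -0.01 against 0 over all genes. Nrp1, a VEGF co-receptor, was at 23.8 CPM in oral and 12.9 CPM in pancreatic WT tumors on average (log2 fold change 0.88, adjusted p = 0.0385 from edgeR, below the fold threshold). Pgf, a ligand of Flt1, was at 3.72 and 8.27 CPM (-1.14, adjusted p = 0.253), Vegfb at 15.9 and 21.9 CPM (-0.46, adjusted p = 0.0697), and Flt4, the VEGF-C receptor, at 9.78 and 6.98 CPM (0.49, adjusted p = 0.403). Between KO tumors 1 of the 10, Vegfc, was called, higher in oral tumors. Over all genes, 14.6% were called higher and 10.7% lower in oral KO tumors. In KO against WT, edgeR and DESeq2 called none in either tissue. At an unadjusted p under 0.05 were 0 in oral and 3 in pancreatic tumors, as were 35.4% and 15.9% of all genes. Nrp2, the most abundant co-receptor in CPM, was at 65.8 CPM in pancreatic WT and 121 CPM in pancreatic KO tumors (0.89, SE 0.32, edgeR adjusted p = 0.231).

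Of the 7 genes of the angiopoietin axis, the 3 called between WT tumors were Angpt1, Angpt2 and Tek. Of all genes, 9.3% were called higher and 7.24% lower in oral WT than in pancreatic WT tumors. Tie1, the orphan partner of Tie2, was at 10.6 and 5.89 CPM (log2 fold change 0.85, adjusted p = 0.0334, below the fold threshold). Between KO tumors, where 10.7% of all genes were called lower in oral and 14.6% higher, 1 of 7 was called, Angpt4, a further Tie2 ligand. Its levels were 0.078 and 0.0992 CPM in oral and 0.832 to 1.58 CPM in pancreatic KO tumors. It passed the count filter through the pancreatic tumors alone, so its fold is not given, and it was not called without oral KO replicate 2. In pancreatic KO against WT, all 7 had values above 0, with a median of 0.81 against 0.02 over all genes. The median was 0.38 to 0.91 over the alternatives. Tek, Tie1 and Ptprb of this list are also among the endothelial markers described next. Neither edgeR nor DESeq2 called any of the 7, with 2 at an unadjusted p under 0.05, as were 15.9% of all genes.

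The 26 endothelial markers, which include 6 of the 10 genes, were present in every group. Their summed level was 305 to 500 CPM in oral WT, 299 and 394 in oral KO, 275 to 381 in pancreatic WT and 316 to 501 in pancreatic KO tumors, and these ranges overlapped. Between WT tumors, 9.3% of all genes were called higher in oral tumors and 7.24% lower. Of the 26 markers, 4 were called higher and 0 lower, with a median log2 fold change of 0.49. They were S1pr1, a sphingosine-1-phosphate receptor, at 32.8 ± 9.79 against 10.5 ± 1.3 CPM (SD, n = 4 each, log2 fold change 1.64, adjusted p = 0.00159), Cyyr1 (1.09, adjusted p = 0.00877), Tek, and Clec14a at 7.02 ± 1.08 against 3.07 ± 1.36 CPM (1.2). The count was 1 without pancreatic WT replicate 2 and ranged from 1 to 5 over the alternatives. Between KO tumors, 2 of 26 were called lower in oral tumors, where 10.7% of all genes were. They were Pecam1 and Plvap, the diaphragm protein of fenestrated capillaries, at 14 and 21.4 CPM against 37 to 59.7 CPM (-1.52, adjusted p = 0.0154), which was not called without oral KO replicate 1.

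In pancreatic KO against WT tumors, 25 of 26 endothelial markers had log2 fold changes above 0, with a median of 0.48 against 0.02 over all genes. None was called by edgeR, 10 had an unadjusted p under 0.05, as did 15.9% of all genes, DESeq2 called 1, and the median was 0.27 to 0.71 over the alternatives. The summed level of 8 fibroblast genes moved the same way, from 1149 to 2310 CPM in WT to 2243 to 3790 CPM in KO tumors, with 8 of 8 above 0 and none called. Of 8 leukocyte genes 3 were above 0, with a median of -0.38. Their part in the endothelial values was not tested. In oral KO against WT, 15 of 26 were above 0, with a median of 0.01, and edgeR called none, with 3 at an unadjusted p under 0.05, as were 35.4% of all genes, and 2 called by DESeq2. In the interaction, where 12.3% of all genes were called, 1 of 26 was, S1pr1 (-1.14, adjusted p = 0.0471), in 5 of 20 alternatives.

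Of 12 tip cell and sprouting genes, 2 were called higher and 3 lower in oral than in pancreatic WT tumors and 7 were not called, with a median of 0.1, where 9.3% and 7.24% of all genes were called higher and lower. Esm1, a secreted proteoglycan of tip cells, was at 6.1 ± 5.86 CPM in oral and 40.9 ± 13.7 CPM in pancreatic WT tumors (SD, n = 4 each), with ranges of 2.68 to 14.8 and 23.7 to 54.1 CPM (log2 fold change -2.74, SE 0.6, edgeR adjusted p = 0.0128). In KO tumors it was at 1.39 and 2.85 CPM in oral and 38.1 to 48.5 CPM in pancreatic tumors (-4.31, SE 0.37, edgeR adjusted p = 0.00446), and it was called under all alternatives of both comparisons. Notch4, an endothelial Notch receptor, was also lower in oral WT tumors (-1.59, adjusted p = 0.0103), as was Kcne3 (-2.45). The netrin receptor Unc5b (1.4, adjusted p = 0.00242) and the basement membrane gene Nid2 (1.33) were higher. In oral KO against WT, where 11.7% of all genes were called, 1 of 12 was, Cxcr4, a chemokine receptor that leukocytes also express. It fell from 14.4 ± 2.11 (SD, n = 4) to 6.15 and 7.29 CPM (-1.02, adjusted p = 0.0486) and was called in 3 of 16 alternatives. In pancreatic KO against WT, edgeR and DESeq2 called none, with 1 at an unadjusted p under 0.05, as were 15.9% of all genes.

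Of 7 lymphatic genes, 2 were called lower in oral WT than in pancreatic WT tumors, the hyaluronan receptor Lyve1, at 3.2 ± 1.19 against 13.2 ± 5.02 CPM (-2.04, adjusted p = 0.00556), and Prox1, at 0.958 ± 0.403 against 4.23 ± 2.72 CPM (SD, n = 4 each, -2.13, adjusted p = 0.0246). The Prox1 call was lost without oral WT replicate 2 and without pancreatic WT replicates 1 or 4. None of the 7 was called higher, 3 lay above 0, and the median log2 fold change was -1.45. Of all genes, 9.3% were called higher and 7.24% lower in oral WT tumors. Vegfc, the lymphatic ligand, lay on the other side of Lyve1 and Prox1 in mean level. Lyve1 is also carried by macrophages. Of 8 leukocyte genes tested, 5 had log2 fold changes above 0, with a median of 0.31. The myeloid gene Itgam was called lower, at 12.6 against 69.3 CPM (-2.46, adjusted p = 0.00324), and Cd79a higher, while the macrophage genes Csf1r (59.1 and 32.2 CPM) and Adgre1 (13 and 12.1 CPM) were not called. In KO against WT, edgeR called 0 of 7 lymphatic genes in both tissues, with 2 in oral and 1 in pancreatic tumors at an unadjusted p under 0.05. DESeq2 called 2 in oral tumors, Prox1, at 0.958 ± 0.403 in WT (SD, n = 4) and 3.2 and 3.27 CPM in KO tumors, and Pdpn, a mucin-like gene that epithelia and fibroblasts also express, at 35 ± 14.6 and 6.85 and 13.8 CPM, and it called 0 in pancreatic tumors. Of 11 pericyte and smooth muscle genes, Pdgfrb, the receptor that recruits pericytes, was higher in oral WT tumors at 73.5 ± 21.5 against 24.1 ± 5.41 CPM (1.61, adjusted p = 0.00253) and Acta2 lower at 150 ± 59.3 against 468 ± 177 CPM (SD, n = 4 each, -1.64, adjusted p = 0.0105). No other gene of the list was called between WT tumors. Of the 11, 5 lay above 0, and the median was -0.16. Acta2 was also lower in oral than in pancreatic KO tumors (-2.35, adjusted p = 0.0187). In the interaction, where 12.3% of all genes were called, 1 of 11 was, Mcam (-1.86, adjusted p = 0.0468), in 7 of 20 alternatives. In KO against WT, edgeR called 0 of 11 in both tissues, and DESeq2 called 1 in each. At an unadjusted p under 0.05 were 1 in oral and 2 in pancreatic tumors, as were 35.4% and 15.9% of all genes.

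The hypoxia response list moved with Vegfa between tissues. Of 12 genes, 8 were called lower in oral than in pancreatic WT tumors and 0 higher, with a median log2 fold change of -1.98, and the count was 8 or 9 under every alternative. Ddit4 was at 81.5 ± 13.3 and 220 ± 40.4 CPM (-1.43, adjusted p = 0.00104), Ankrd37 at 2.46 ± 0.458 and 9.84 ± 2.76 CPM (-2, adjusted p = 0.00176) and Pdk1 at 89.6 ± 20 and 214 ± 33 CPM (SD, n = 4 each, -1.26, adjusted p = 0.00213). The 5 others called were Car9, Adm, Ndrg1, Bnip3 and Slc2a1, between -2 and -3.9. Summed over the list, oral WT tumors were at 715 to 2020 CPM and pancreatic WT tumors at 3949 to 7059 CPM. Of all genes, 7.24% were called lower in oral WT and 10.7% in oral KO tumors than in pancreatic tumors of the same genotype. Between KO tumors, at 1133 and 2059 CPM and 2198 to 4358 CPM, 5 of 12 were called lower in oral tumors, and 1 was when protein-coding genes alone were fitted without oral KO replicate 1. In KO against WT, edgeR called none in either tissue, and DESeq2 called 0 in oral and 1 in pancreatic tumors. At an unadjusted p under 0.05 were 1 in oral and 3 in pancreatic tumors, as were 35.4% and 15.9% of all genes.

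Of 10 angiogenesis inhibitors, 5 were called higher and 1 lower in oral than in pancreatic WT tumors, with a median log2 fold change of 1.24. Of all genes, 9.3% were called higher and 7.24% lower. Thrombospondin-2 (Thbs2) was at 163 ± 83.4 and 15.9 ± 7.97 CPM (3.36, adjusted p = 0.00252), PEDF (Serpinf1) at 112 ± 30.9 and 18.8 ± 7 CPM (2.57, adjusted p = 0.00134) and Col18a1, the precursor of endostatin, at 124 ± 19.5 and 42.5 ± 15.2 CPM (SD, n = 4 each, 1.55, adjusted p = 0.00357). Thbs1 and Sema3a were also higher, and Adamts1 was lower (-2.97). Fibroblasts make several of these, and 7 of 8 fibroblast genes were called higher in the same comparison, with a median of 2.71 and summed levels of 9404 to 19728 against 1149 to 2310 CPM. The part of fibroblast RNA in the values of the inhibitors, of Angpt1 and of Pdgfrb was not tested. In KO against WT, edgeR called 0 of 10 in both tissues. In pancreatic tumors 8 had an unadjusted p under 0.05, as did 15.9% of all genes. There, 6 of the 10 lay above 0, with a median of 0.65. DESeq2 called Col18a1, with 28.1 to 58.7 CPM over the WT and 65.9 to 112 CPM over the KO tumors. In oral tumors 3 had an unadjusted p under 0.05, as did 35.4% of all genes, and the median of the 10 was -0.38. DESeq2 called Serpinf1 there, with 70.3 to 137 CPM over the WT tumors against 38.8 and 56.1 CPM after Sox2 loss. The interaction was called for 12.3% of all genes. In the interaction, Serpinf1 (-2.15, adjusted p = 0.019) and Col18a1 (-1.53, adjusted p = 0.0319) were called, in 19 and 13 of 20 alternatives, and neither was called without oral KO replicate 1.

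**Figure D5:**
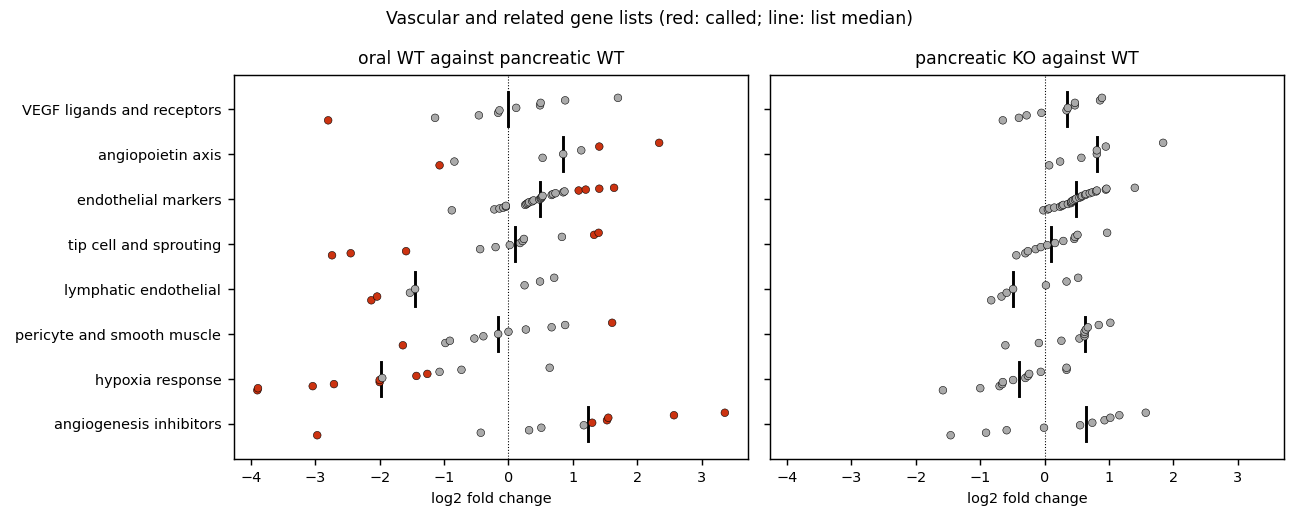
Log2 fold changes of every gene of 8 lists between WT tumors (left, oral over pancreatic) and between pancreatic KO and WT tumors (right), 1 point per gene, red where called, with the list median as a black line. The hypoxia response median lies at -1.98 on the left, the endothelial median at 0.49 on the left and 0.48 on the right, and no point on the right is red.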

How the data were processed

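RNA was extracted from 13 tumors, depleted of ribosomal RNA and sequenced as stranded paired-end libraries. The authors trimmed reads with Trim Galore 0.6.10, checked them with FastQC 0.12.1, quantified them with kallisto 0.50.0 on GENCODE M23 transcripts (GRCm38) and summed them per gene with tximport. They deposited estimated counts per gene without scaling. Of 56085 rows, 55332 have values, and 27.3% of the values are not whole. GENCODE M21 gave symbols, positions and exon lengths (55141 identifiers matched), and RefSeq (GRCm38.p6) gave promoters. Of the 31-base sequences of the 10 genes, at most 2.11% (Pecam1) occur in other genes. Groups came from the sample labels.

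Estimated counts were rounded and fitted in R 4.3.3 by the quasi-likelihood test of edgeR 4.0.16 with robust settings and TMM scaling. Genes needed 10 counts or more in 2 or more of the compared tumors. P-values were adjusted by Benjamini-Hochberg over all genes tested. A gene was called when its adjusted p was below 0.05 and its log2 fold change beyond 1 in size. All adjusted p-values of genes come from edgeR unless DESeq2 is named. The steps were tested on simulated data. CPM uses TMM factors over all 13 tumors and CPM per kb the merged exon length, so levels do not share the scaling of a comparison of 2 groups. Log2 CPM used a prior count of 2, and ratios added 0.5 to each count and were tested by exact two-sided permutation. The depth per tumor limits precision mainly in oral KO replicate 1, where Angpt1 and Angpt2 rest on 43.2 and 42 estimated counts.

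The 10 genes, the gene lists and the rules were chosen with earlier results of these data known, and the lists were written by hand. All 10 genes are named, in the other lists up to 3 called genes per comparison with the smallest adjusted p, or 2 with the highest mean CPM where none was called, and for likeness the 5 closest genes to Pecam1, Cdh5, Vegfa and Angpt2. Of the list genes named beyond this rule (such as Kcne3, Nid2, Clec14a, Nrp1, Csf1r, Adgre1, Prox1 and Pdpn in oral KO tumors, Pgf, Vegfb, Flt4 and Tie1), the choice followed their values. Alternatives were DESeq2 size factors, DESeq2 1.42.0 with and without apeglm 1.24.0, no filter, at least 10 counts in every tumor, protein-coding genes alone, thinned counts, 1 fit of all tumors, a replicate block, a pseudocount of 5 and leaving out each tumor. Protein-coding genes without oral KO replicate 1 were added after the data were seen.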

Additional observations from a re-analysis of the deposited data

Results flagged for a closer look

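Tek, the gene of the receptor Tie2, reached 7.59 CPM in oral WT replicate 1, while the other 3 oral WT tumors had 3.42 to 4.09 CPM. The gap to the nearest of them was 0.84 of the range of the group, above Dixon's critical value for 4 samples. Of 24 groups of 4 tumors tested, this was the 1 that passed, where chance passes about 1 in 20. The same tumor had the highest level of Vegfa, Kdr, Flt1, Pecam1, Cdh5, Angpt2 and Esam among the oral WT tumors, at 111, 23.5, 44.1, 54.1, 54.6, 6.11 and 9.31 CPM.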

How the results depend on the processing

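Over the alternatives, the 6 values called kept their call in 74 refits, lost it in 24 and never changed sign, while values that were not called changed sign in 62 refits, kept their side in 670 and passed the thresholds in 10. Vegfa between WT tumors held under all 17 alternatives. Of the 10 genes, 4 were called between WT tumors, and leaving out 1 tumor gave 1 to 4, with 1 without pancreatic WT replicate 2 and 2 without pancreatic WT replicates 3 or 4. Between KO tumors 2 were called, 1 in 1 fit of all 13 tumors, 0 with protein-coding genes and no oral KO replicate 1, and 1 to 2 when a tumor was left out. The median of all genes moved past 0.1 in size without a filter (-0.11 in oral KO against WT, -0.21 in the interaction) and without an oral KO tumor (-0.13 between KO tumors, -0.14 and -0.15 in the interaction), where the lone oral KO tumor is assumed to vary like the others. The fits with protein-coding genes and no oral KO replicate 1 were chosen after seeing the data. Where the cause of a change is not in the alternative itself, the cause was not tested.

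Values near 0 changed sign. In oral KO against WT, Vegfc was 0.01 with at least 10 counts in every tumor, 0.09 with protein-coding genes and 0.01 with thinned counts, Kdr was -0.03 with DESeq2 size factors, -0.08 without a filter, -0.02 with DESeq2 with or without apeglm and -0.07 in 1 fit of all tumors, and Cdh5 was 0.07 with protein-coding genes. With protein-coding genes and no oral KO replicate 1, Pecam1 was 0.0 and Cdh5 0.54 there, and between KO tumors Cdh5 was 0.02 and Esam 0.12. Between KO tumors Kdr was -0.04 without a filter, and Esam was 0.09 with at least 10 counts in every tumor, 0.27 with protein-coding genes, 0.15 thinned and 0.05 in 1 fit. In the interaction, Vegfc was 0.06 with at least 10 counts in every tumor, 0.07 with protein-coding genes and 0.13 thinned.

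Leaving out 1 tumor at a time gave, in oral KO against WT, -0.42 to 0.97 for Vegfc, -0.16 to 0.2 for Kdr, -0.17 to 1.37 for Flt1, -0.85 to 0.36 for Cdh5, -0.02 to 0.65 for Angpt2 and -0.05 to 0.33 for Esam. In pancreatic KO against WT it gave -0.63 to 0.06 for Vegfa, -0.23 to 0.14 for Vegfc, -0.09 to 0.29 for Pecam1 and -0.12 to 0.31 for Angpt2, and between WT tumors -0.43 to 0.0 for Flt1. Between KO tumors it gave -0.13 to 0.22 for Kdr, -0.91 to 0.7 for Flt1, -0.04 to 0.62 for Angpt1 and -0.2 to 0.24 for Esam, and in the interaction -0.47 to 0.94 for Vegfc, -0.74 to 0.81 for Flt1 and -0.19 to 0.49 for Angpt2.

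Tumor numbers did not pair the samples, since the correlation of same-numbered tumors was 0.317 for number 1 of the pancreatic groups and at most 0.028 for the others. With the replicate block, 2 of the 10 genes, Vegfa and Tek, were called between WT tumors, and Angpt1 (edgeR adjusted p = 0.0532) and Angpt2 (0.0914) were not. Kdr was -0.23 and Esam -0.04 in oral KO against WT, Vegfc 0.02 in pancreatic KO against WT, Kdr -0.16 and Flt1 -0.36 between KO tumors, and Vegfc 0.16 in the interaction. Between KO tumors the block lost Vegfc, kept Pecam1 and added Vegfa (-1.85, adjusted p = 0.0041) and Cdh5.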
